A study of Mus musculus with 12 samples.

Results

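Mitochondrial ribosomal protein genes are nuclear genes whose products build the ribosome inside mitochondria. They were taken here as every protein-coding gene with a symbol that starts with Mrpl or Mrps followed by a digit, pseudogenes left out, which gave 77 of the 39179 genes in the count files. Of these, 50 encode proteins of the large subunit and 26 proteins of the small subunit. The last, Mrps36, is counted by its symbol, although later work places its product in the 2-oxoglutarate dehydrogenase complex. Mrpl33 was not analysed here, and 5 pseudogenes with such symbols are no members.

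The RNA came from calvariae (skull caps) of C57BL/6 mouse embryos at embryonic day 17.5, sequenced in 12 libraries. The groups were wild type (WT) with vehicle, Runx2+/- (heterozygous for the osteoblast transcription factor Runx2) with vehicle, WT with MS-275, and Runx2+/- with MS-275, with 3 libraries each. MS-275 (entinostat) inhibits class I histone deacetylases, and the dams received 10 mg per kg intraperitoneally on days 14.5 and 16.5 post coitum after mating at 8 weeks of age. The labels do not say which part of Runx2 is deleted, or whether the replicates of a group are separate embryos or litters. The p-values therefore speak of the spread among these 12 libraries.

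The mitochondrial ribosome translates only the mRNAs of the mitochondrial genome, which encode core subunits of the respiratory chain and of ATP synthase. Its rRNAs are transcribed in mitochondria, while all its proteins are made in the cytosol and imported. Part of these proteins descend from the bacterial ribosome, and part were added in the mitochondrial lineage. Osteoblasts, the bone-forming cells of the calvaria, use both glycolysis and respiration.

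The count in genes was 13307456 to 19399760 per library. Levels below are CPM (counts-per-million) with TMM scaling, edgeR's default, which sets libraries level on the bulk of the genes. In the first principal component, with 72.5% of the variance, replicate 3 of Runx2+/- MS-275 (score −106) lay among the vehicle libraries. Replicate 3 of WT vehicle (5.51) and of Runx2+/- vehicle (−14.5) lay apart from the other vehicle libraries, which had scores of −122 to −92.7. These 3 libraries are called the libraries that stand apart. Runx2 itself was at 42.4 to 46.1 CPM in WT vehicle and 32.8 to 65.3 in Runx2+/- vehicle, so the genotypes were not separated by it. Xist was high in all 3 Runx2+/- MS-275 libraries (29300 to 79127 counts), whereas each other group held both a library with 19585 counts or more and one with 60 or fewer. The sexes were thus not balanced between groups, and in those 3 groups the replicates did not all come from 1 embryo.

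The start regions of these genes are shown first, because the same regions reappear beside the drug differences. The RefSeq promoter table (GRCm38.p6), with 250 bases before to 50 bases after each start, held 74 promoters for 68 of the 77 genes. Each was searched on both strands for the letters GCGCANGCG (the NRF1 motif), CCGGAAGT (an ETS motif) and AAGATGGCG (a YY1 motif). NRF1 is a known activator of nuclear genes for mitochondrial proteins, and ETS-family factors and YY1 are known for many housekeeping promoters. At least 1 of the 3 motifs was in 44.6% of the mitoribosomal promoters and in 10.6% of all 32851 promoters of the table. The shares were 21.6% against 6.25% for NRF1, 14.9% against 3.89% for ETS and 10.8% against 1.40% for YY1. TATAAA, the TATA box, was in 6.76% against 13.6%. Median GC content was 58.8% in the mitoribosomal promoters and 52.7% in all, so the base composition moves with these shares, and its part in them was not tested.

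Below are 4 stretches upstream of genes that passed the test in WT with MS-275 and then 3 of genes that did not, chosen to set promoters with the same motif side by side. Each is from RefSeq, GRCm38.p6, written 5′ to 3′ on the strand of the gene and free of annotated exons, and capitals mark a motif match. Mrpl45 is at chr11:97315596-97315715 on the plus strand and has NRF1 matches. Mrpl9 is at chr3:94443198-94443317 on the plus strand, where a palindrome matches NRF1 on both strands and the 2 matches overlap. Mrps22 is at chr9:98601680-98601799 on the minus strand with an ETS match. Mrpl42 is at chr10:95501950-95502069 on the minus strand with no match in this stretch, and its YY1 match lies after the start.
Mrpl45: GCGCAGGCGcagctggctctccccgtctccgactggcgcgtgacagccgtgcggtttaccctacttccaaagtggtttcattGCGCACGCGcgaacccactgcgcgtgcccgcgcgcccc
Mrpl9: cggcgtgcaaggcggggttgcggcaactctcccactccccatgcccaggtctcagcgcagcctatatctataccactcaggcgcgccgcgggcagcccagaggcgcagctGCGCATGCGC
Mrps22: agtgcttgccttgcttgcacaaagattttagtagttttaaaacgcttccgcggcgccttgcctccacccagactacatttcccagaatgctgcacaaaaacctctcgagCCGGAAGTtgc
Mrpl42: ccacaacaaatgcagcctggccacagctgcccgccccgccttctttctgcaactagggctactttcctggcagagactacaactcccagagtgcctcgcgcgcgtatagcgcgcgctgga

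The other 3 did not pass the test. Mrpl12 is at chr11:120484493-120484612 on the plus strand with an NRF1 match. Mrpl43 is at chr19:45006443-45006557 on the minus strand, and Mrps27 is at chr13:99344706-99344785 on the plus strand, each with an ETS match. Like Mrpl42, Mrps27 also has a YY1 match that lies after the start, outside the stretch.
Mrpl12: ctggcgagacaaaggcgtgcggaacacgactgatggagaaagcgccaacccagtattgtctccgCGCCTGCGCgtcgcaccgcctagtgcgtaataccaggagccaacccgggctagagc
Mrpl43: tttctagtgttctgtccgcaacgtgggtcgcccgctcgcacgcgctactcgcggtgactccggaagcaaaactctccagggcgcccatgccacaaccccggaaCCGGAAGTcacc
Mrps27: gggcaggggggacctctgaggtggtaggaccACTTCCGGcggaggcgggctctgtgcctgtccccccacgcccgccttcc

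Mrps22 and Mrpl43 carry the same 8 letters close to their starts, yet their log2 differences in WT with MS-275 were 1.11 and −0.02. Among genes that passed the test, 11 of 21 promoters held 1 of the 3 motifs (52.4%), and among those that did not, 22 of 51 did (43.1%). A match describes the letters and is no evidence of binding.

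The mitoribosomal mRNAs spanned a wide range of levels. Genes are compared here by mean CPM per kilobase of exon over the 12 libraries. The length counts every base that is exon in any annotated transcript of the gene. In Mrpl42 these were 3682 bases, against 666 bases in the transcript with the longest coding sequence. The order of genes can therefore depend on this choice. The highest were Mrps21 (68.3), Mrpl52 (39.8), Mrpl54 (33.3), Mrpl27 (32.7) and Mrpl20 (32.6). In WT vehicle alone the order was Mrps21 (41.3), Mrpl54 (28.9), Mrpl34 (25.1), Mrpl41 (23.3) and Mrpl52 (22.6), so Mrpl27 and Mrpl20 were among the first 5 only with the drug libraries counted. Mrps21 and Mrpl27 are the counterparts of bacterial S21 and L27, and Mrpl52 and Mrpl54 have no bacterial counterpart. The lowest were Mrps30 (2.94), Mrps35 (2.52), Mrps34 (0.697), Mrps23 (0.270) and Mrpl53. On this measure, proteins of the same particle thus differed widely in counted mRNA per kilobase. In Mrpl53, 88.0% of exon bases are shared with Ccdc142os or Gm42688, and in Mrps34 77.8% with Mapk8ip3 or Nme3. Reads there could be set aside as ambiguous, so those levels are uncertain. Mrpl53 had 0 or 1 count and Mrps23 1 to 13 counts per library, and both were left out by the filter on low counts, so 75 of the 77 genes were tested.

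MS-275 in WT embryos came with higher levels of many mitoribosomal mRNAs on the TMM scale. Of the 75 genes tested, 21 rose and 0 fell at an adjusted p under 0.05 in edgeR's quasi-likelihood test over all 17967 genes. Among all genes, 9.67% were called higher and 9.33% lower. The median log2 fold change was 0.77 for the mitoribosomal genes and −0.13 for all genes, and 67 of 75 were above 0. At an unadjusted p under 0.05, 39 were higher and 0 lower, against 22.1% and 25.3% of all genes. In 41 of 75 all 3 MS-275 libraries lay above all 3 vehicle libraries (27.3% of all genes did), and in 1 they lay below (27.5%).

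The calls sat close to the threshold, with adjusted p of 0.0434 to 0.0488. Without any one of WT vehicle replicate 1 or 2, Runx2+/- vehicle replicate 1 or 2, WT MS-275 replicate 1, 2 or 3, or Runx2+/- MS-275 replicate 2, 0 mitoribosomal genes were called, as were 0 of all genes. Without Runx2+/- vehicle replicate 3 the count was 9 (5.20% of all genes higher), without WT vehicle replicate 3 it was 33 (13.9%), without Runx2+/- MS-275 replicate 1 it was 38 (15.4%), and without Runx2+/- MS-275 replicate 3 it was 40 (22.2%). Without the 3 libraries that stand apart, 57 of 76 were called higher and 0 lower (28.5% of all genes higher). DESeq2 called 38 of 75 (18.5%), and these held all 21. From the WT libraries alone edgeR called 38 of 75 (20.9%). limma-voom called 0, and edgeR with no filter on low counts called 0, with a smallest adjusted p of 0.0512 over all genes.

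The scale of the comparison decides the sign of part of these differences. MS-275 libraries had more of their counts in a few genes: the 10 most counted genes took 6.25% to 8.29% of counts with vehicle and 17.8% to 24.0% with MS-275 in WT. Scaled by library size alone, 4 mitoribosomal genes were called higher and 5 lower, against 2.93% and 39.0% of all genes. The 4 were Mrpl42 (0.90), Mrpl30 (0.75), Mrpl35 (0.66) and Mrps18c (0.71), and the 5 were Mrpl37 (−1.07), Mrps26 (−1.03), Mrpl43 (−0.82), Mrps27 (−0.76) and Mrps12 (−0.72). By library size all 3 MS-275 libraries lay above all 3 vehicle libraries in 9 mitoribosomal genes and below in 25, against 7.70% and 59.8% of all genes. On that scale the median was −0.07 for the mitoribosomal genes and −0.95 for all genes. In WT the distance between these 2 medians was 0.89 with TMM and 0.88 by library size. A change of scale multiplies all genes of a library by the same factor. The distance can thus move only where factors differ between libraries of a group, and its steadiness is no separate check of the rise. In Runx2+/-, where the TMM factors of the 3 MS-275 libraries were 0.603, 0.814 and 1.33, the same distance was 0.70 with TMM and 0.51 by library size.

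The share of all counts taken by the 77 genes together was 0.204, 0.209 and 0.264% with vehicle and 0.218, 0.226 and 0.233% with MS-275 in WT. In Runx2+/- it was 0.197, 0.192 and 0.242% with vehicle and 0.229, 0.210 and 0.223% with MS-275, so all 4 groups overlapped. The summed TMM-scaled level was 1549, 1606 and 2231 CPM with vehicle and 2657, 3105 and 3900 CPM with MS-275 in WT, where the groups did not overlap. It was 1507, 1455 and 1984 CPM in Runx2+/- vehicle and 3794, 2577 and 1671 CPM in Runx2+/- MS-275, where replicate 3 lay within the vehicle range. In whole calvaria, more cells with many mitoribosomal mRNAs and more of these mRNAs per cell cannot be told apart.

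**Figure D1:**
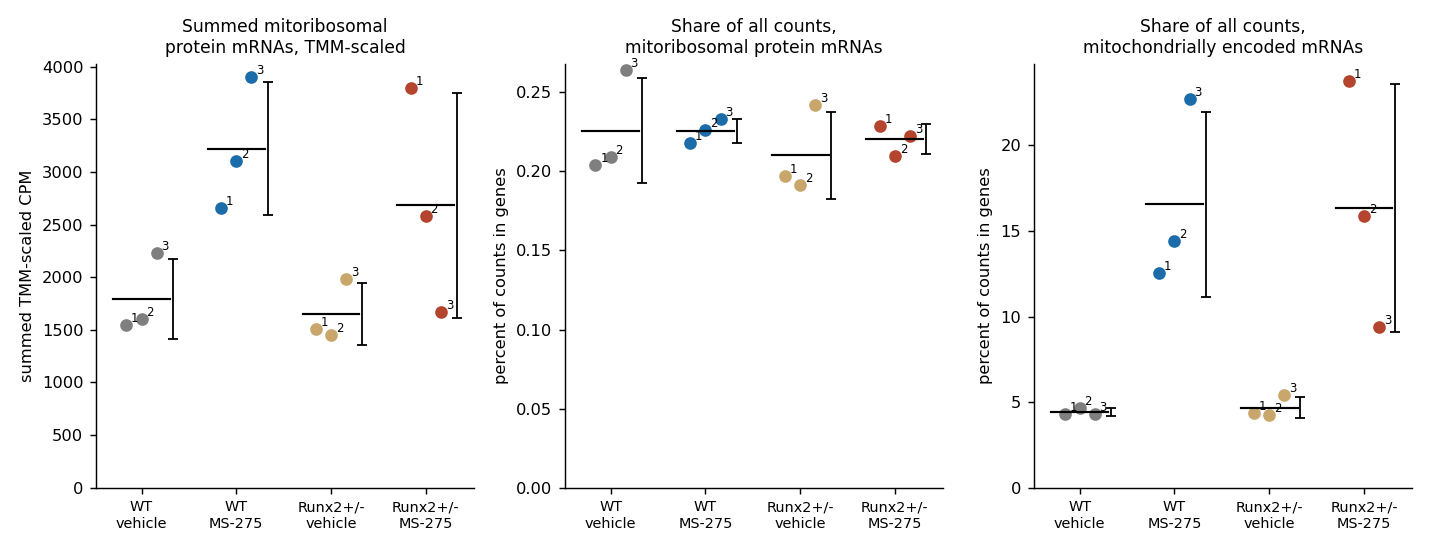
Summed mitoribosomal protein mRNA level in TMM-scaled CPM (left), its share of all counts in percent (middle) and the share of mitochondrially encoded mRNAs in percent (right), per library and group, where points are libraries with their replicate number, bars are means and error bars 1 SD (n = 3). The left panel separates WT MS-275 (2657 to 3900) from WT vehicle (1549 to 2231), the middle panel does not, and the right panel separates both drug groups from their vehicle groups.

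Summed markers of several cell types differed between the WT groups as well, while the neuronal, erythroid and adipocyte ranges overlapped. The summed level of 12 epidermal markers, 11 of them called lower, was 1649 to 4707 CPM with vehicle and 48.9 to 54.8 with MS-275 in WT, and that of 10 neuronal markers 259.96 to 3043 and 112 to 637. Lens markers (8) summed to 14.7 to 1102 and 9.64 to 12.4 CPM, with 1 of the 8 at 0 in every WT MS-275 library. The lowest WT vehicle value of both the neuronal and the lens sum was that of replicate 3. Runx2+/- vehicle replicate 3, at 516 CPM of neuronal and 17.4 CPM of lens markers, was likewise below the other libraries of its group. Osteoblast markers (12) summed to 10734 to 15543 and 66291 to 82327 CPM, 8 of them called higher and none at 0, and erythroid markers (7) to 1906 to 4443 and 3839 to 20794. Osteoclast markers (7, of which 3 were called higher) summed to 224 to 476 and 2011 to 2295 CPM, myeloid markers (7, of which 2 were called higher) to 180.5 to 402 and 762 to 839, and endothelial markers (6, of which 1 was called higher) to 256 to 377 and 566 to 751. Skeletal muscle markers (10, of which 2 were called lower) went from 3699 to 7033 to 584 to 3239 CPM, and adipocyte markers (8), with ranges of 81.4 to 413 and 202 to 263, overlapped. In Runx2+/- MS-275, replicates 1 and 2 had 51.1 and 51.0 CPM of epidermal markers and replicate 3 had 2246. Reads assigned to no gene were 10.5% to 15.2% of uniquely aligned reads with vehicle and 5.21% to 6.28% with MS-275 in WT. In Runx2+/- they were 14.2, 16.8 and 14.1% with vehicle and 6.36, 8.65 and 22.2% with MS-275, so replicate 3 was above every vehicle library. The part of these shifts in the mitoribosomal differences was not tested.

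Both subunits held genes that rose, beside 9.67% of all genes called higher in WT. In WT, 13 of 49 large-subunit genes rose, with a median log2 fold change of 0.77, and 8 of 25 small-subunit genes rose, with a median of 0.76. Genes with a bacterial counterpart had a median of 0.83 (13 of 44 rose) and mitochondria-specific ones 0.58 (8 of 30 rose). The difference between these classes was not tested.

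In the large subunit, Mrpl42, a mitochondria-specific protein (gene at chr10:95480805-95501940, GENCODE M21, GRCm38), had the smallest p. Its level was 35.3, 42.3 and 49.98 CPM with vehicle and 106, 135 and 192 CPM with MS-275 in WT, every drug library being above every vehicle library. The log2 fold change was 1.76 (SE 0.44, adjusted p = 0.0434) by edgeR. In Runx2+/- it was 35.9, 33.2 and 49.9 CPM with vehicle and 205, 121 and 47.8 CPM with MS-275, and replicate 3 alone stayed in the vehicle range.

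Mrpl30 (chr1:37890477-37898535), the counterpart of bacterial L30, was at 38.5, 41.2 and 61.2 CPM with vehicle and 101, 133 and 199 CPM with MS-275 in WT. The groups did not overlap, and edgeR gave 1.62 (SE 0.43, adjusted p = 0.0434). Mrpl35, the counterpart of L35, rose from 18.9, 18.8 and 22.3 to 40.6, 55.3 and 77.5 CPM, a log2 fold change of 1.53 (SE 0.39, adjusted p = 0.0434) by edgeR. Mrpl52 rose from 21.2, 20.01 and 34.1 to 52.5, 71.6 and 96.4 CPM, or 1.55 (SE 0.45, adjusted p = 0.0453) by edgeR. In both genes the lowest drug library was above the highest vehicle library.

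Mrpl32 is matured by the m-AAA protease after import, a step known to gate ribosome assembly. Its mRNA was at 17.0, 18.0 and 22.3 CPM with vehicle and 32.0, 47.1 and 65.6 CPM with MS-275 in WT, with 1.34 (SE 0.39, adjusted p = 0.0459) by edgeR. Mrpl24, the counterpart of L24, an early assembly protein in bacteria, was at 31.4, 27.5 and 38.5 CPM with vehicle and 50.7, 61.2 and 81.3 CPM with MS-275 in WT. Its log2 fold change was 0.99 (SE 0.26, adjusted p = 0.0434) by edgeR, and its groups did not overlap either. Mrpl47, the counterpart of L29, and Mrpl9, that of L9, followed with 1.13 (SE 0.32, adjusted p = 0.0441) and 0.97 (SE 0.28, adjusted p = 0.0454) by edgeR. Mrpl45, which lies at the exit of the nascent chain tunnel, was at 0.77, and at −0.06 when scaled by library size. It is 1 of 9 further genes called in the 2 subunits, Mrpl45, Mrpl20, Mrpl21, Mrpl39, Mrpl50, Mrps6, Mrps14, Mrps15 and Mrps33, with log2 fold changes of 0.77 to 1.52.

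In the small subunit, Mrps28 had the largest value, 1.68 (SE 0.54, adjusted p = 0.0507) by edgeR, and did not pass the test. It was at 7.74, 7.15 and 16.3 CPM with vehicle and 26.2, 29.7 and 43.9 CPM with MS-275 in WT, so the groups did not overlap, with WT vehicle replicate 3 well above the other vehicle libraries. Mrps31 was at 14.0, 14.1 and 14.6 CPM with vehicle and 28.6, 29.5 and 43.6 CPM with MS-275 in WT, and rose by 1.25 (SE 0.33, adjusted p = 0.0434) on the log2 scale by edgeR. Its 3 vehicle libraries differed by under 1 CPM. Mrps22, in which human variants cause mitochondrial disease, was at 17.2, 20.6 and 19.2 CPM with vehicle and 30.6, 38.2 and 54.4 CPM with MS-275 in WT, with 1.11 (SE 0.29, adjusted p = 0.0434) by edgeR. Mrps9, the counterpart of S9, rose least of the genes called, from 24.1, 26.4 and 26.6 to 35.8, 41.4 and 53.7 CPM, with 0.76 (SE 0.22, adjusted p = 0.0454) by edgeR. By library size Mrps9 was at −0.09 and Mrps15 at −0.0030, both below 0.

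The 3 Mrps18 paralogs sit at different places of the ribosome: Mrps18c takes the position of bacterial S18, Mrps18b another place in the small subunit, and Mrps18a one in the large subunit. Only Mrps18c of the 3 passed the test in WT, at 1.57 (SE 0.43, adjusted p = 0.0434) by edgeR. Mrps18b was at 0.22 (SE 0.25, adjusted p = 0.488) and Mrps18a at 0.05 (SE 0.20, adjusted p = 0.858). Mrps18c levels were 16.2, 14.6 and 21.5 CPM with vehicle and 35.1, 50.8 and 69.5 CPM with MS-275 in WT. The number of Mrps18c counts per Mrps18a count in a library, which no scaling between libraries can move, was 0.906, 0.783 and 0.819 with vehicle and 1.48, 2.32 and 3.63 with MS-275 in WT. In Runx2+/- it was 0.806, 0.887 and 0.947 with vehicle and 3.79, 2.28 and 0.896 with MS-275. All drug libraries but Runx2+/- MS-275 replicate 3 were thus above all 6 vehicle libraries in this ratio, which was given no test.

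At the other end, 8 genes had a log2 fold change below 0 in WT, none of them called. Mrpl37, a mitochondria-specific large-subunit protein (chr4:107055874-107066868), was lowest at −0.24 (SE 0.19, adjusted p = 0.312) by edgeR. It was at 38.0, 42.8 and 42.4 CPM with vehicle and 33.9, 37.0 and 33.2 CPM with MS-275 in WT, the single gene whose drug libraries were all below the vehicle libraries. Mrps26 (−0.21), Mrps34 (−0.16), Mrps2 (−0.13) and Mrpl38 (−0.11) came next. Counts of Mrpl42 per count of Mrpl37 were 0.928, 0.987 and 1.18 with vehicle and 3.13, 3.65 and 5.77 with MS-275 in WT, so the proportion of these mRNAs within a library did not overlap between the groups. In Runx2+/- the ratio was 0.927, 0.904 and 1.33 with vehicle and 5.67, 3.59 and 0.856 with MS-275, replicate 3 being below every vehicle library. These 2 genes are the extremes of the ranking, and the ratio is a description only.

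**Figure D2:**
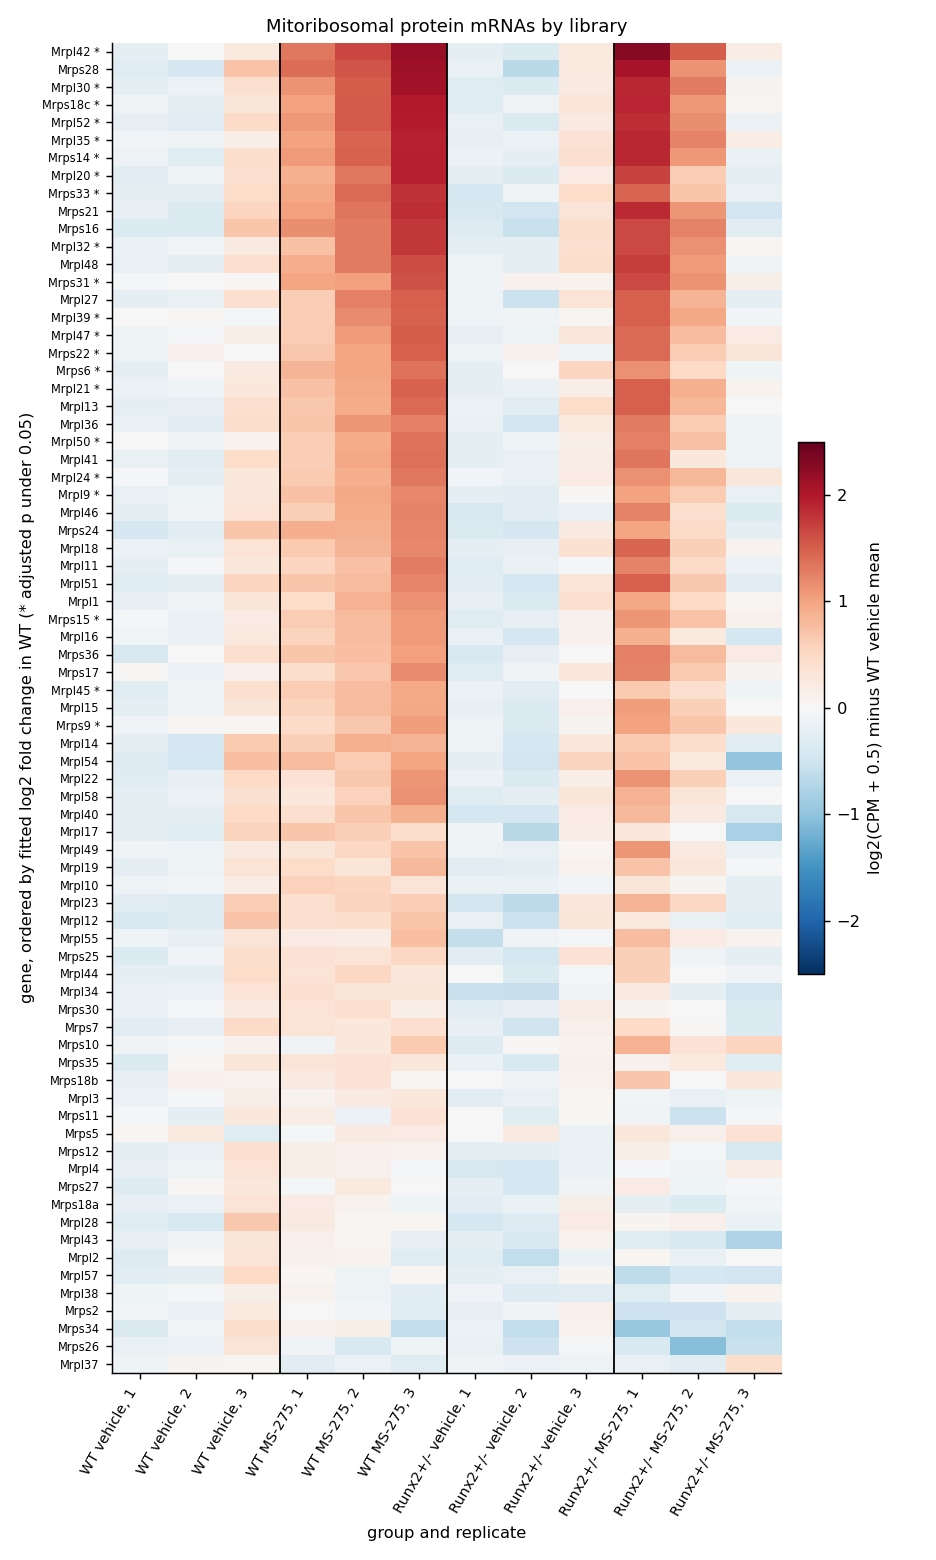
Level of each of the 75 tested mitoribosomal genes (rows, ordered by log2 fold change in WT) in each of the 12 libraries (columns), as log2(CPM + 0.5) minus the gene's WT vehicle mean. Rows at the top are high in 5 of 6 MS-275 libraries, rows at the bottom lie closer to 0, and Runx2+/- MS-275 replicate 3 resembles the vehicle columns.

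Of genes named for their roles, Mrpl12, the stalk protein that also binds the mitochondrial RNA polymerase, was at 0.44 (SE 0.34, adjusted p = 0.307) by edgeR. Mrpl58, a peptidyl-tRNA hydrolase built into the large subunit, was at 0.69 (SE 0.32, adjusted p = 0.108). Mrps30, a large-subunit protein despite its symbol, was at 0.32 (SE 0.20, adjusted p = 0.218), and Mrps36 at 0.82 (SE 0.30, adjusted p = 0.0660). None of the 4 passed the test in WT by edgeR.

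In Runx2+/- embryos the same drug comparison gave 0 calls among the 75 genes and 0% of all genes by edgeR, with a smallest adjusted p of 0.181. At an unadjusted p under 0.05, 33 were higher and 0 lower, against 13.9% and 7.16% of all genes. DESeq2 called 10 of 75 higher (4.77% of all genes), and limma-voom 0. The median log2 fold change was 0.66, against −0.04 for all genes, and 67 of 75 were above 0. In 8 genes all drug libraries lay above all vehicle libraries (6.33% of all genes), and in 2 below (8.56%). By library size the median was 0.03, and −0.48 for all genes.

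Replicate 3 of Runx2+/- MS-275 decided that count. Without it, 38 of 76 mitoribosomal genes were called higher and 0 lower (18.5% of all genes higher), and without the 3 libraries that stand apart 52 of 76 (23.9%). The 38 included 20 of the 21 genes called in WT. Mrpl42 (1.65 with it and 2.04 without), Mrpl30 (1.39 and 1.75), Mrps28 (1.48 and 1.89), Mrps21 (1.27 and 1.69) and Mrpl52 (1.26 and 1.64) were highest with all libraries. Mrps9 had the smallest p there, at 0.83 (SE 0.22, adjusted p = 0.181) by edgeR, and all its MS-275 libraries (52.4, 42.1 and 31.1 CPM) were above its vehicle libraries (23.6, 19.9 and 26.9 CPM). Mrps36 was among the 3 smallest p as well, with 1.05 (SE 0.31, adjusted p = 0.181). The lowest were Mrps34 (−0.66), Mrps26 (−0.42), Mrpl57 (−0.42), Mrps2 (−0.38) and Mrpl43 (−0.32), none of them called.

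**Figure D3:**
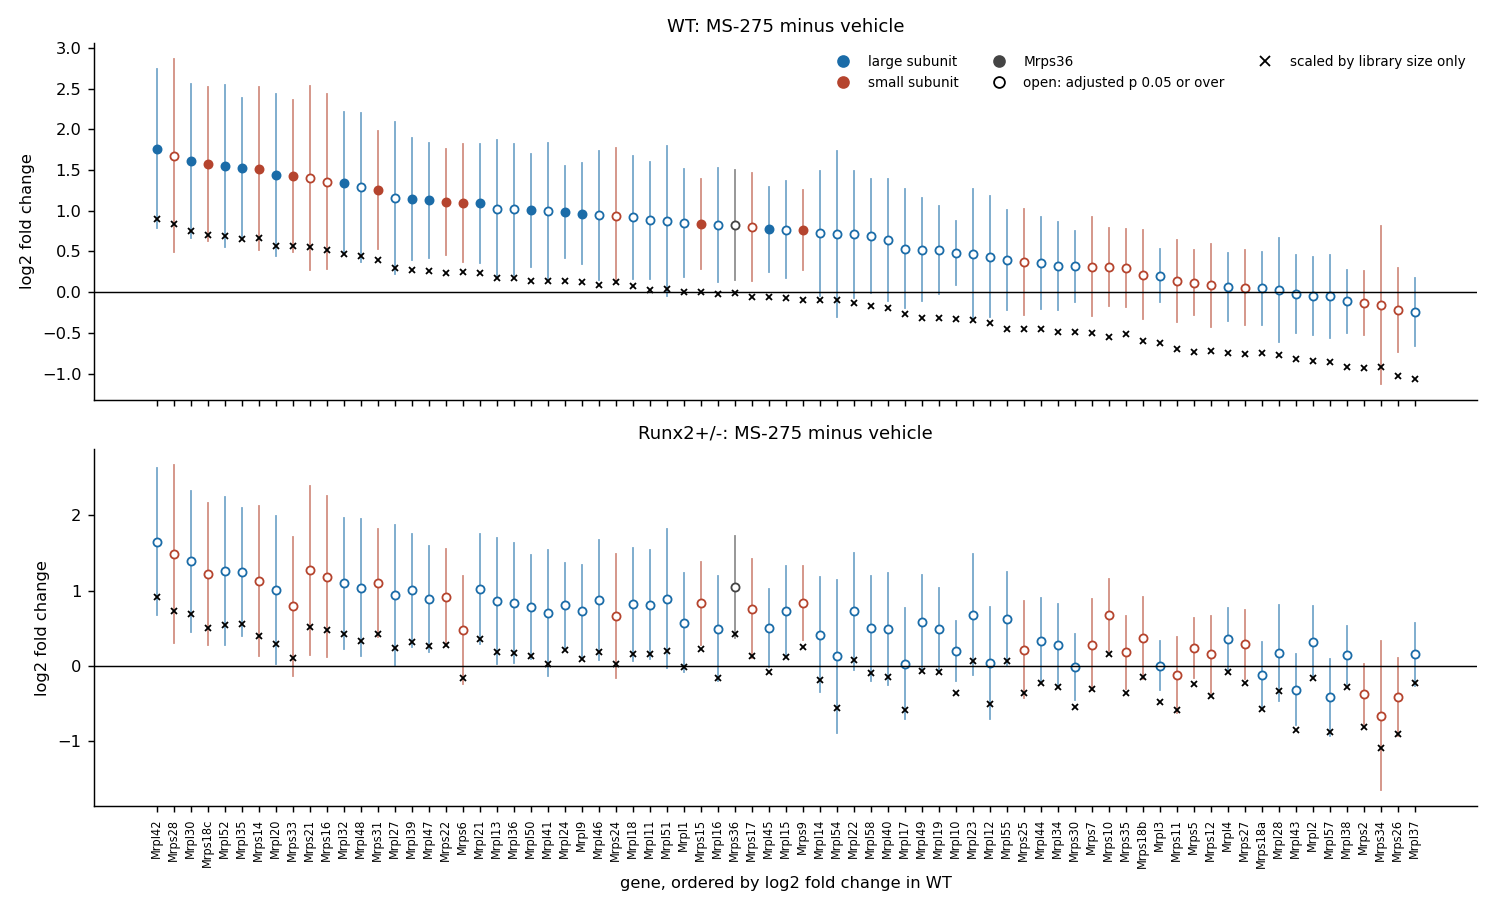
Log2 fold change of each gene with its 95% confidence interval in WT (top) and Runx2+/- (bottom), genes in the order of WT, where filled circles passed an adjusted p of 0.05, blue for the large and red for the small subunit, and crosses are the values scaled by library size only. With TMM scaling 67 of 75 genes lie above 0 in each panel, and by library size 31 do in WT and 39 in Runx2+/-.

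Whether the drug difference depended on genotype was tested as an interaction. edgeR called 0 of 75 (0% of all genes), with 0 at an unadjusted p under 0.05 (5.30% of all genes) and a smallest adjusted p of 0.873. DESeq2 called 0 of the 75 (0.211% of all genes), and limma-voom 0. The smallest p was that of Mrpl37, whose log2 difference of differences was 0.40 (SE 0.27, adjusted p = 0.873) with a 95% interval of −0.19 to 0.99. Mrps6 (−0.62) and Mrpl2 (0.37) came next. Intervals of this width do not show that the drug differences were alike in both genotypes.

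Between the genotypes no mitoribosomal gene was called. With vehicle, edgeR called 0 of 75 (0% of all genes) with 0 at an unadjusted p under 0.05 (0.306% of all genes). Neither DESeq2 nor limma-voom called any (0 each). The median was −0.13 (−0.01 for all genes), and 8 of 75 were above 0. Without WT vehicle replicate 3 the median was 0.07 with 53 of 76 above 0, and without the 3 libraries that stand apart, which takes replicate 3 out of both vehicle groups, it was −0.08 with 14 of 76 above 0. In each same-numbered pair of vehicle libraries, a pairing that the labels do not give, the summed level and the share of counts given above were lower in Runx2+/-. With these 2 groups alone and the replicate number as a block, edgeR called 0 of 75, with a smallest adjusted p of 0.918 and a median of −0.13. With TMM scaling no gene's groups were separated downward (2.09% of all genes were), and by library size 4 of 75 were (1.97%). The smallest p were those of Mrpl4 (−0.36), Mrpl2 (−0.39) and Mrpl34 (−0.43).

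With MS-275, edgeR called 0 of 75 between genotypes (0% of all genes), and 4 were lower and 0 higher at an unadjusted p under 0.05, against 4.03% and 11.7% of all genes, so the share lower was near that of all genes. DESeq2 called 0 of the 75, with 3.14% of all genes higher and 0.768% lower, and limma-voom called 0. The median was −0.27 (0.05 for all genes), −0.03 without Runx2+/- MS-275 replicate 3, and −0.0050 by library size (0.40 for all genes). In 10 of 75 the Runx2+/- libraries were all below the WT libraries (7.52% of all genes). The smallest p were those of Mrpl10, a stalk protein, at −0.43 (SE 0.18, adjusted p = 0.297), Mrpl57 at −0.53 (SE 0.23, adjusted p = 0.306), and Mrpl3, which lies near the peptidyl transferase centre, at −0.34 (SE 0.15, adjusted p = 0.307) by edgeR.

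The rest of the mitochondrial translation system was counted on the TMM scale, where 9.67% of all genes were called higher and 9.33% lower in WT. The other mitoribosomal proteins, with symbols of their own, had 2 of 5 called higher in WT: Aurkaip1 at 1.52 (SE 0.40, adjusted p = 0.0434) and Chchd1 at 1.63 (SE 0.49, adjusted p = 0.0471) by edgeR. Of translation factors, 4 of 15 rose and 0 fell, with a median of 0.41, among them the initiation factor Mtif2 at 0.77 (SE 0.18, adjusted p = 0.0434). Assembly and rRNA modification factors had a median of 0.14, with 3 of 25 called higher (Fastkd2, Gtpbp10 and Malsu1) and 0 lower. Their share called higher was near that of all genes. The 20 mitochondrial aminoacyl-tRNA synthetases tested, which charge tRNAs with amino acids, had a median of 0.07. Genes of mitochondrial transcription and RNA processing had 3 of 12 called higher, the exoribonuclease Pnpt1 at 1.15 (SE 0.25, adjusted p = 0.0434) among them. The mRNAs of ribosomal proteins (median 0.77) therefore lay above those of the assembly factors and synthetases, a difference that was not tested.

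RNAs made inside mitochondria stood higher still. All 12 mitochondrially encoded mRNAs tested rose in WT, with a median log2 fold change of 2.84, and they rose when scaled by library size as well (12 of 12, median 1.93). Their share of counts was 4.30, 4.68 and 4.28% with vehicle and 12.5, 14.4 and 22.7% with MS-275 in WT. In Runx2+/- it was 4.39, 4.25 and 5.39% with vehicle and 23.8, 15.9 and 9.37% with MS-275, and here replicate 3 too was above the vehicle libraries. The rRNA of the small mitoribosomal subunit, mt-Rnr1, was at 185, 184 and 323 CPM with vehicle and 878, 1247 and 2048 CPM with MS-275 in WT, with 2.59 (SE 0.65, adjusted p = 0.0434) by edgeR. mt-Rnr2, of the large subunit, was at 2.53 (SE 0.76, adjusted p = 0.0471). In Runx2+/-, mt-Rnr1 was at 154, 228 and 392 CPM with vehicle and 2237, 1436 and 355 CPM with MS-275. There mt-Rnr2 was at 199, 313 and 677 CPM with vehicle and 4268, 2050 and 466 CPM with MS-275. For both rRNAs replicate 3 thus lay within the vehicle range, unlike for the mRNA share. The library kit starts from total RNA, and how far rRNA was removed per library was not tested.

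Nuclear respiratory chain subunits had a median of 1.06 in WT, with 24 of 82 called higher and 0 lower. Cytosolic ribosomal proteins had a median of 1.79, with 18 of 86 called higher and 0 lower. The mitoribosomal genes had 21 of 75 called higher, and of all genes 9.67% were. Scaled by library size, the medians of the 3 lists were 0.21, 0.95 and −0.07, so the mitoribosomal list was the one of the 3 whose median turned below 0. Without the 3 libraries that stand apart, 70 of 82, 84 of 86 and 57 of 76 were called higher (28.5% of all genes).

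**Figure D4:**
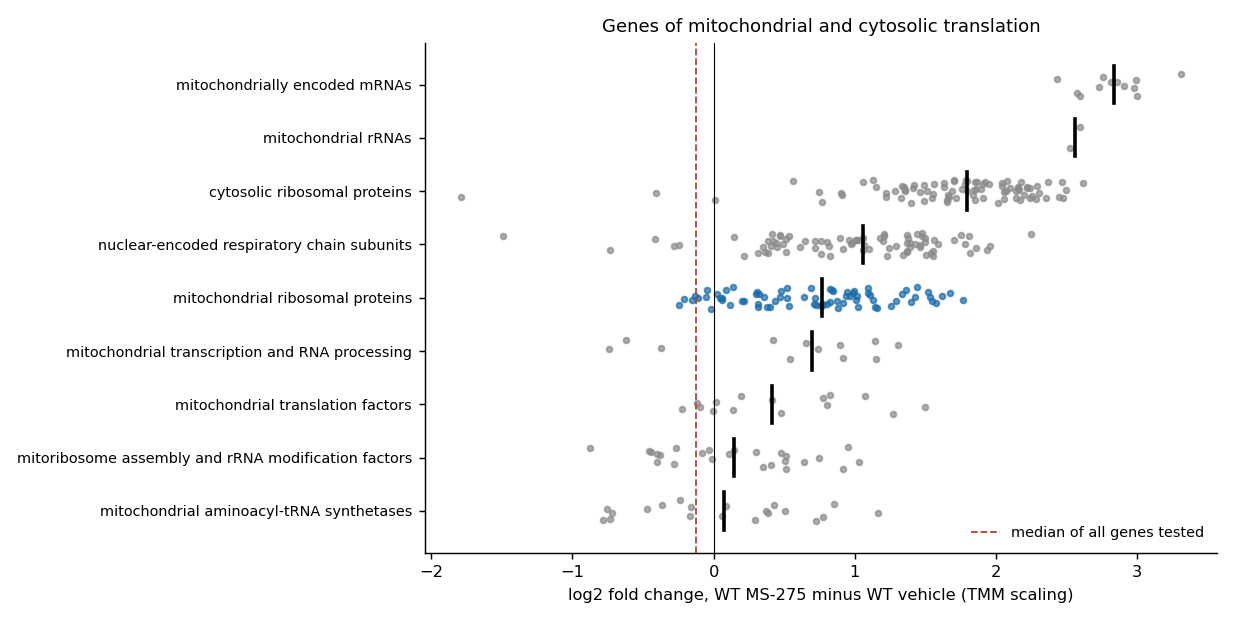
Log2 fold change in WT (MS-275 minus vehicle, TMM scaling) of each tested gene of 9 lists, 1 point per gene, with the list's median as a black bar and the median of all genes (−0.13) as a dashed line. The mitoribosomal genes (blue, median 0.77) lie below the mitochondrially encoded mRNAs (2.84) and above the aminoacyl-tRNA synthetases (0.07).

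Properties of the genes went with the size of their drug difference. Across the 75 genes in WT, Spearman's rho of the log2 fold change with transcript GC content was −0.36, with coding length −0.37 and with mean CPM 0.53. Across 15859 protein-coding genes tested the values were −0.28, −0.22 and 0.39. The genes share the same libraries and are not replicates, and mean CPM holds the drug libraries too. The 25 genes with the lowest log2 fold changes had a median GC of 52.6% and 762 coding bases, and the 25 with the highest 48.2% and 477. With the GC trend of each library taken out, 9 genes were called higher in place of 21 (4.54% of all genes higher), and the median was 0.73.

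Many of these genes share a start region with a neighbour on the other strand. A head-to-head neighbour with a start within 1000 bases was annotated for 33 of 77 mitoribosomal genes (42.9%) and for 2337 of 21303 protein-coding genes in the files (11.0%). In 32 cases both genes were tested, with Mrpl46 and Mrps11, each other's neighbour, entered from both sides. The median log2 fold change in WT was 0.72 for the mitoribosomal genes and −0.06 for the neighbours, and the mitoribosomal gene was the higher in 23 of 32. Of the neighbours, 3 were called higher and 3 lower, near the shares of all genes (9.67% and 9.33%). Of the mitoribosomal genes in these pairs, 7 were called higher. The difference between the 2 genes of a pair was not tested.

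In some pairs both genes had values well above 0. Mrpl47 (1.13) and the complex I subunit Ndufb5 (1.59), with starts 615 bases apart, were both called. Mrpl32 (1.34) and the proteasome subunit Psma2 (1.29) had starts 75 bases apart, and Mrpl36 (1.02) and the complex I subunit Ndufs6 (1.06) had starts 29 bases apart, with the test passed by Mrpl32 alone of these 4. Other pairs had values of opposite sign: Mrps18c (1.57) and the DNA helicase Helq (−0.58), with 29 bases between starts, and Mrpl40 (0.64) and the histone chaperone Hira (−0.95), with 175 bases. Hira was called lower and Mrpl40 was not called. Mrps27, with its ETS match shown above, was at 0.06, while its neighbour Ptcd2 was called higher at 0.86. Mrpl46 was at 12.6, 14.1 and 19.2 CPM with vehicle and 23.0, 29.1 and 36.1 CPM with MS-275 in WT, and Mrps11 at 12.6, 11.1 and 15.6 CPM with vehicle and 14.8, 11.7 and 16.8 CPM with MS-275 in WT. Counts of Mrpl46 per count of Mrps11 were 0.994, 1.28 and 1.23 with vehicle and 1.56, 2.48 and 2.15 with MS-275 in WT, without overlap. In Runx2+/- they were 0.859, 1.19 and 1.01 with vehicle and 2.96, 2.27 and 0.924 with MS-275, and replicate 3 lay within the vehicle range. Mrpl46 and Mrps11 share 173 exon bases with each other (12.2% of Mrpl46 and 7.97% of Mrps11). Mrpl47 shares 24.2% of its exon bases with Actl6a or Ndufb5. Reads there could be set aside as ambiguous, and the effect on these comparisons was not tested.

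**Figure D5:**
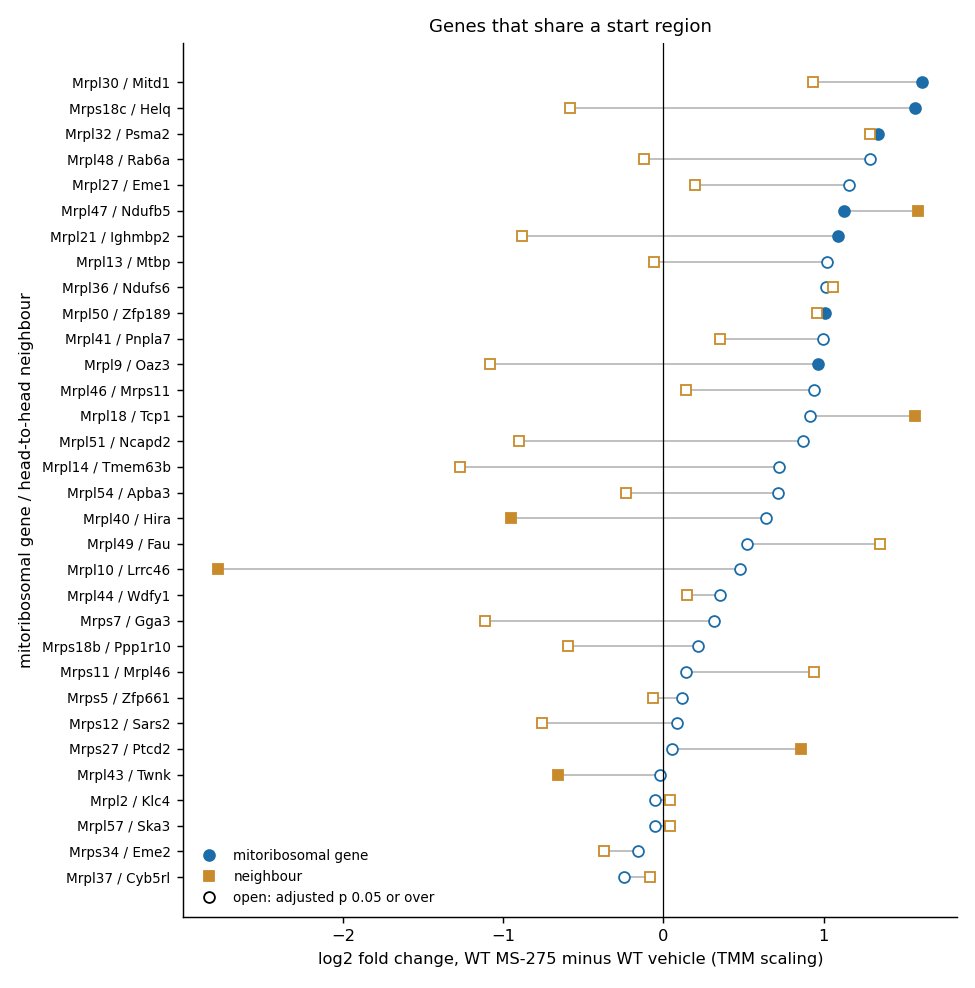
Log2 fold change in WT (MS-275 minus vehicle, TMM scaling) of 32 mitoribosomal genes (circles) and of the head-to-head neighbour of each (squares), joined by a line, where filled symbols passed an adjusted p of 0.05. The circle lies to the right of the square in 23 of 32 rows.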

How the data were processed

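Counts of reads per Ensembl gene were deposited by the authors as whole numbers in 1 file per library, from a stranded total RNA kit per the labels' protocols. Trimmomatic, Bowtie2, SAMtools and HTSeq are named in the submitters' processing notes, which give GRCh38.p7, a human build, for mouse identifiers. Whether counting used strand is not stated there. Symbols and positions came from GENCODE M21 (GRCm38), which matched 37693 of 39179 identifiers, and the other 1486 held 0.184% of counts. Entries that name no gene were left out. No 2 libraries of a group agreed within sampling noise (chi-square per degree of freedom of 20.7 to 401). Between the vehicle groups, same-numbered libraries correlated at 0.22, 0.75 and 0.81 in their deviations from the group means. The numbers were therefore also tried as a block there, although the labels give no pairing. Replicate 3 stood apart in both groups, so these correlations cannot show that the libraries are pairs. WT vehicle replicate 1 correlated better with Runx2+/- vehicle replicate 2 (0.68) than with its own number.

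All 12 libraries entered 1 fit of 4 group means in edgeR 4.0.16 (quasi-likelihood, robust, TMM factors of 0.598 to 1.33, filterByExpr, 8 residual degrees of freedom, common biological coefficient of variation 0.442), with Benjamini-Hochberg adjustment over 17967 genes and a threshold of 0.05. Tests are two-sided. The script was tested on simulated data. R 4.3.3, DESeq2 1.42.0, limma 3.58.1 and Python 3.11.15 were used. The members and lists were chosen with earlier results of these data known. Named genes are up to 12 with the smallest p among those called, the 5 highest and 5 lowest by drug difference and by level per kilobase, the 3 smallest p in the other comparisons, a fixed set of 7 (the Mrps18 paralogs, Mrps36, Mrps30, Mrpl12 and Mrpl58), up to 4 a list, and, named after their values were seen, genes shown for a promoter, a neighbour or a call that depends on scaling. Intervals cover the spread among libraries only.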

Additional observations from a re-analysis of the deposited data

How the results depend on the processing

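Scaled by library size only, the count of mitoribosomal genes called higher in WT was 4 in place of 21 and the count called lower 5 in place of 0. The median log2 fold change on that scale was −0.068 in WT and 0.026 in Runx2+/-, and Mrpl45 (−0.057), Mrps15 (−0.0030) and Mrps9 (−0.093) changed sign. The count in WT was 0 without a filter on low counts, 0 by limma-voom, 38 by DESeq2, 38 from the WT libraries alone, 9 with the GC correction and 57 without the 3 libraries that stand apart, the last 2 being alternatives chosen after seeing the data. Leaving out 1 library at a time gave 0 to 40 in WT and 0 to 38 in Runx2+/-. In Runx2+/- the count was 10 by DESeq2 and 52 without those 3 libraries. The causes were not tested. Size factors of the RLE method (21) and a stricter count filter (23) left the WT count within 1.5 times, and the genotype and interaction counts were 0 under every alternative run.

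Outside the 2 vehicle groups, no pair of groups had all same-numbered libraries correlated over 0.1, so there the numbers were not taken to pair the samples. With the replicate number as a block in the fit of all libraries, 0 genes were called in WT. A block in the fit of the 2 vehicle groups alone, chosen after seeing the data, changed no call. With 3 libraries a group and calls next to the threshold, counts of calls are less steady here than the medians, which stayed above 0 in both drug comparisons under all alternatives except that by library size in WT.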
